A study of Arabidopsis thaliana with 34 samples.

Results

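L-type lectin receptor kinases of clade I sit in a pair of tandem clusters of the Arabidopsis thaliana genome, and 10 of these genes, out of the 27538 genes listed in the expression tables, are described here. They were taken by locus: 6 genes of the chromosome 3 cluster that the pAP141 deletion removes, LecRK-I.1 (AT3G45330), LecRK-I.2 (AT3G45390), LecRK-I.3 (AT3G45410), LecRK-I.4 (AT3G45420), LecRK-I.5 (AT3G45430) and LecRK-I.6 (AT3G45440), and 4 genes of the chromosome 5 cluster that every line retains, LecRK-I.7 (AT5G60270), LecRK-I.8 (AT5G60280), LecRK-I.9 (AT5G60300) and LecRK-I.11 (AT5G60320). The study removed duplicated syntenic blocks with SaCas9, a nuclease expressed from an egg cell promoter and guided by a pair of gRNAs, and asked whether retained paralogues change in expression when their partners are lost. RNA-seq was carried out on 34 samples, each given as TPM (a level corrected for transcript length and library size, scaled to a fixed sum per sample) and as an estimated read count per gene. The levels below are TPM as deposited, and the log2 fold changes and adjusted p-values come from edgeR's quasi-likelihood test on the counts, with Benjamini-Hochberg adjustment over all genes tested and a call at an adjusted p under 0.05.

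All plants were in the Col-0 background and none received a treatment. In the time-of-day experiment, pools of seedlings grown for about 2 weeks on plates were collected in the evening (t1) and the morning (t2). The pAP141 line (homozygous for the chromosome 3 deletion that holds the 6 cluster genes) gave 4 samples at t1 and 2 at t2, the pAP142 line (homozygous for a deletion elsewhere on chromosome 5 that holds none of the 10 genes) gave 3 and 3, and Col-0 without a deletion gave 4 and 3. In the pAP146 experiment, whose deletion lies on another stretch of chromosome 3 and also spares all 10 genes, there were 4 samples of homozygous whole seedlings, 3 of heterozygous leaves, 4 of leaves of siblings without the deletion and 4 of Col-0 leaves. Leaves came from individual plants of about 2 weeks, and no age is given for the homozygous seedlings. Homozygous pAP146 plants develop late, so genotype, organ and stage change together in that comparison and cannot be told apart. Each deletion was represented by 1 line, and pAP141 and pAP142 were compared with the same Col-0 samples. No label says whether seedling pools came from separate plates, so p-values measure the spread between these samples, which may in part be technical.

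L-type lectin receptor kinases span the plasma membrane, with an outer domain that resembles the sugar-binding lectins of legume seeds and an inner protein kinase. LecRK-I.9, also known as DORN1 or P2K1, is the receptor through which Arabidopsis senses ATP released from wounded or stressed cells, and LecRK-I.5, also known as P2K2, is a further receptor for extracellular ATP that acts with it. LecRK-I.8 has been linked to the perception of extracellular NAD+ and to responses to insect eggs, and LecRK-I.1 to natural variation in cell death at sites of egg laying. Receptors for ATP thus stand in both clusters, and pAP141 lacks LecRK-I.5 while it keeps LecRK-I.9.

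Libraries held between 26640541 and 43851997 estimated reads. Root markers (8 genes, PYK10 and CASP1 among them) summed to 423.1 to 1201 TPM across the time-of-day seedlings and to 128.2 to 550.1 TPM in homozygous pAP146 seedlings. In the leaf samples they summed to 1.18 to 8.19 TPM, with EXPA7, a root hair gene, at 0 in every leaf sample. The library of pAP141 t2 replicate 1 had the lowest TMM scaling factor, 0.743, in a range from 0.743 to 1.12 in that experiment, and pAP141 t2 rests on that sample and 1 other.

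The left break of the pAP141 deletion falls inside the first gene of the chromosome 3 cluster. Shown here are the target sites of the gRNA pair in the TAIR10.1 genome, each with its PAM in capitals. The left site lies on the minus strand at 3:16632566-16632592, in the coding exon of LecRK-I.1, and the right site on the plus strand at 3:16747522-16747548, in AT3G45620.
pAP141 spacer1: ggagtttcaactccggtgttaATGGGT
pAP141 spacer2: ggtaagcttgtccgagctatgGTGGGT
With a cut 3 bases from each PAM, the deletion takes 93.4% of the coding bases of LecRK-I.1 and leaves 135 of 2049 bases at the 3' end. It takes all coding bases of LecRK-I.2, LecRK-I.3, LecRK-I.4, LecRK-I.5 and LecRK-I.6.

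The 6 chromosome 3 genes lie on the minus strand between 16632261 (the 3' end of LecRK-I.1) and 16667747 (the 5' end of LecRK-I.6), and the 4 chromosome 5 genes on the plus strand between 24257723 and 24272835 (TAIR10.1). LecRK-I.10 (AT5G60310), a further gene between LecRK-I.9 and LecRK-I.11, was not among the loci chosen. The coding sequence of LecRK-I.9 is 2301 bases long and lies in 2 exons, and the coding sequences of the other 9 genes span 1974 to 2169 bases, with 2 coding exons in LecRK-I.2 and LecRK-I.6 and 1 in the other 7. Genes of 1 cluster were on the whole no more alike than genes of different clusters. In pairwise alignments of coding sequences, identity ran from 69.7 to 86.7% (median 71.6%) over the 15 pairs within chromosome 3, from 70.0 to 73.6% (median 71.9%) over the 6 pairs within chromosome 5, and from 68.9 to 77.9% (median 71.8%) over the 24 pairs between the clusters. The closest pairs were neighbours, LecRK-I.1 with LecRK-I.2 (86.7%) and LecRK-I.3 with LecRK-I.4 (85.8%). Among the 10 genes, the ATP receptors LecRK-I.5 and LecRK-I.9 formed the closest pair across the clusters, at 77.9%, and LecRK-I.11 was closest to LecRK-I.1, at 76.8%. LecRK-I.10, left out of these ranges, stood at 78.0% with LecRK-I.5 and at 83.2% with LecRK-I.9.

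**Figure D1:**
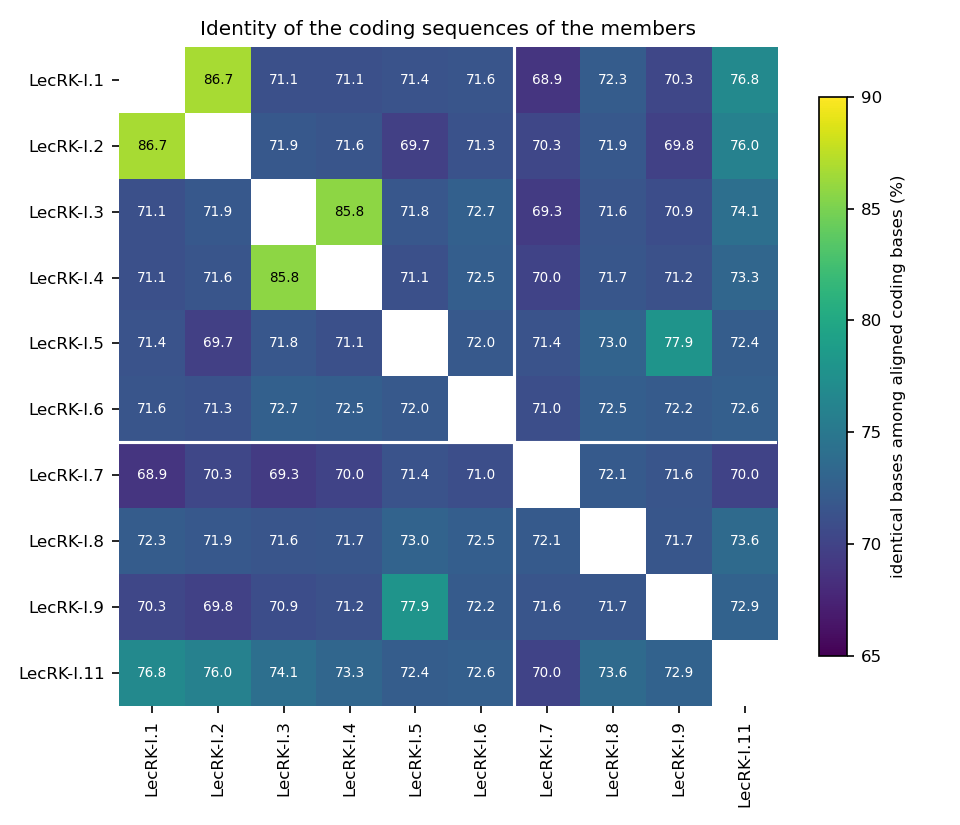
Percentage of identical bases among aligned coding bases for each pair of the 10 genes, with the color scale from 65 to 90%. White lines part the 6 chromosome 3 genes from the 4 chromosome 5 genes, and the high cells are LecRK-I.1 with LecRK-I.2 (86.7%), LecRK-I.3 with LecRK-I.4 (85.8%) and, across the clusters, LecRK-I.5 with LecRK-I.9 (77.9%).

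How far reads can be assigned to these genes depends on the identical stretches they share. Shown here are the longest identical run of any pair, and the most alike aligned stretches of LecRK-I.3 with LecRK-I.4 and of LecRK-I.5 with LecRK-I.9. The longest run of identical bases between LecRK-I.1 (3:16633206-16633251, minus strand) and LecRK-I.2 (3:16648683-16648728, minus strand) was 46 bases long and is printed 1 time for both.
LecRK-I.1 and LecRK-I.2: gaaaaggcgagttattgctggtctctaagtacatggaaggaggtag
The most alike aligned 120 bases of LecRK-I.3 (3:16654813-16654932) and LecRK-I.4 (3:16658042-16658161), both on the minus strand, differed at 3 bases, shown in capitals.
LecRK-I.3: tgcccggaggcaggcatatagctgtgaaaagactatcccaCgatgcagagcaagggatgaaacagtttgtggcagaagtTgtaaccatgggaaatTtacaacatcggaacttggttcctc
LecRK-I.4: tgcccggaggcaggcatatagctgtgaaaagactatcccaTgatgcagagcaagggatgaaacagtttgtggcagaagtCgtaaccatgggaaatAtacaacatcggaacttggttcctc
For the ATP receptors LecRK-I.5 (3:16661218-16661337, minus strand) and LecRK-I.9 (5:24266308-24266427, plus strand), the same measure gave 109 identical bases and 11 differing ones, which are again in capitals.
LecRK-I.5: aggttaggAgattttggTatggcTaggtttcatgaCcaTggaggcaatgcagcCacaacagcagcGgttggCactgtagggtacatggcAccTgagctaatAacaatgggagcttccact
LecRK-I.9: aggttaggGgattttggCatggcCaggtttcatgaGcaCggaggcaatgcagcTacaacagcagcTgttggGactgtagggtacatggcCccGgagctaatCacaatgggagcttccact
Of the 31-base words in each coding sequence, 0.19% (LecRK-I.6) to 2.23% (LecRK-I.1) occurred in another gene, and every such gene was a gene of these clusters. LecRK-I.5 and LecRK-I.9 shared 0 such words, their longest identical run being 25 bases. LecRK-I.5 and LecRK-I.8 shared 11, with a run of 41 bases, and LecRK-I.9 and LecRK-I.10 shared 12, with a run of 36 bases. Estimated counts that were not whole, as arise when a read is shared among genes, occurred for LecRK-I.7 in 32 of the 34 samples, for LecRK-I.9 in 31 and for LecRK-I.1 and LecRK-I.11 in 0. In pAP141, where any read placed on a deleted gene would have come from elsewhere, 0 estimated reads fell on LecRK-I.2 to LecRK-I.6. This does not show how shared reads are divided where genes of both clusters are expressed, as in Col-0 and pAP142.

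In Col-0 seedlings LecRK-I.7 was the most abundant of the 10 transcripts, and LecRK-I.9 the next. At t1 LecRK-I.7 had 9.26, 10.3, 9.82 and 11.3 TPM, LecRK-I.9 4.76, 5.76, 5.40 and 6.22 TPM and LecRK-I.3 1.89, 2.34, 2.69 and 2.80 TPM. The samples of these 3 genes do not overlap, so their order is clear. LecRK-I.8 (1.19 ± 0.307 TPM), LecRK-I.4 (1.04 ± 0.170 TPM) and LecRK-I.5 (0.930 ± 0.174 TPM; SD, n = 4) followed with overlapping samples. LecRK-I.1, LecRK-I.2 and LecRK-I.6 averaged between 0.138 and 0.153 TPM, from 69 to 74 reads over the 4 libraries for LecRK-I.6 and LecRK-I.1 and 64 reads for LecRK-I.2, and could not be ranked. LecRK-I.11 had at most 3 reads in any of the 34 samples and was not tested in either experiment. The chromosome 5 cluster thus gave most of the transcript: it summed to 16.9 ± 1.62 TPM in Col-0 t1, of which LecRK-I.7 made up 60.2% on average, LecRK-I.9 32.7% and LecRK-I.8 7.0%, whereas the 6 chromosome 3 genes summed to 4.83 ± 0.307 TPM.

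In pAP141 the chromosome 3 cluster gave 1 read in 6 libraries, and none of the retained chromosome 5 genes was called. In the 4 samples at t1 the 6 deleted genes had 0 reads each, and at t2 the only read was 1 of LecRK-I.1, in replicate 2. In Col-0 t1 they had 1107.6 (LecRK-I.3), 484.1 (LecRK-I.4), 444.9 (LecRK-I.5), 74 (LecRK-I.1), 69 (LecRK-I.6) and 64 (LecRK-I.2) estimated reads over 4 libraries. Set against a floor of 3 reads per library on the TMM scale of edgeR, LecRK-I.3 was at least 97.8-fold lower in pAP141 t1 than in Col-0 t1, LecRK-I.4 at least 42.1-fold and the ATP receptor LecRK-I.5 at least 38.1-fold lower. For the weakly expressed LecRK-I.1, LecRK-I.6 and LecRK-I.2 the reads allowed bounds of at least 6.39-fold, 6.12-fold and 5.78-fold lower. At t2 the bounds were at least 75.1-fold lower for LecRK-I.3, 39.0-fold for LecRK-I.4, 27.0-fold for LecRK-I.5, 6.47-fold for LecRK-I.6 and 4.31-fold for LecRK-I.2, and LecRK-I.1 stood at 3.46% of its Col-0 level (95% counting interval 0.0859 to 20.1%), from 1 read against 53. In edgeR, 5 of the 6 were called lower at t1, LecRK-I.2 being the exception (adjusted p = 0.112), and 4 of the 6 at t2, where LecRK-I.1 (adjusted p = 0.0939) and LecRK-I.2 (adjusted p = 0.146) were not called. Over all genes tested, 0.0749% were called lower and 0% higher in pAP141 t1, and 0.0562% lower and 0.0421% higher in pAP141 t2. Since the genes were chosen for their place in the deletion, these calls check the labels and say no more. The call of LecRK-I.6 at t2 was lost without Col-0 t2 replicate 1, without Col-0 t2 replicate 2 and without pAP141 t2 replicate 1, with adjusted p of up to 0.348 in edgeR.

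**Figure D2:**
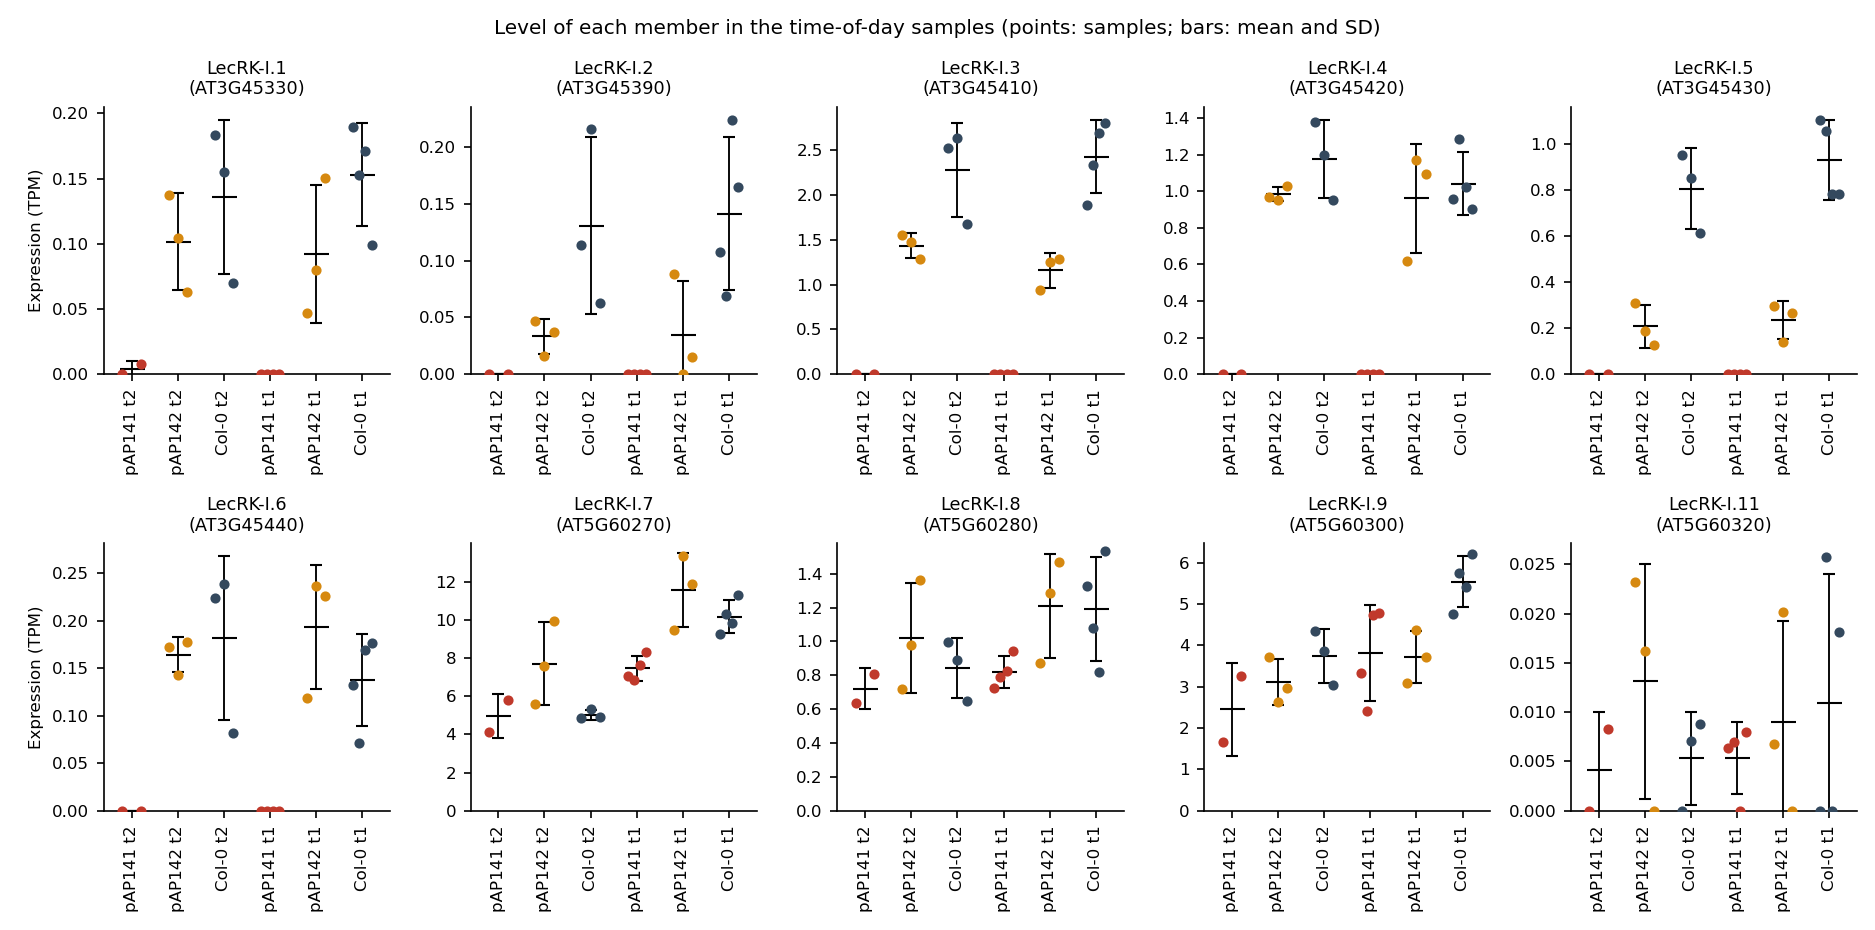
Expression in TPM of each of the 10 genes in the time-of-day samples, with a point for each sample and bars for the mean and SD; the vertical axis differs between panels and starts at 0. The 6 chromosome 3 genes lie at 0 in pAP141 apart from 1 read of LecRK-I.1, whereas LecRK-I.7 lies between 6.85 and 8.31 TPM in pAP141 t1 and between 9.26 and 11.3 TPM in Col-0 t1.

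Whether the retained paralogues were raised in the absence of the chromosome 3 cluster was read from each chromosome 5 gene and from their total. At t1 LecRK-I.7 had 7.06, 6.85, 7.64 and 8.31 TPM in pAP141, against 9.26, 10.3, 9.82 and 11.3 TPM in Col-0. Every pAP141 sample lay below every Col-0 sample in TPM, but the edgeR log2 fold change was -0.27 (SE 0.132) with an adjusted p of 0.236. The log2 ratio of mean TPM was -0.45. TPM ratios in this comparison ran below edgeR fold changes by 0.177 (log2) at the median gene. The unadjusted p of LecRK-I.7 was 0.0582 in edgeR, and whether the shift of scale bears on the lack of a call was not tested. LecRK-I.9 had 3.32, 2.42, 4.74 and 4.78 TPM in pAP141 t1, against 4.76, 5.76, 5.40 and 6.22 TPM in Col-0 t1, a fitted log2 change of -0.37 (SE 0.155, adjusted p = 0.174 in edgeR). The groups just overlap, with 2 pAP141 samples far below and 2 at the edge of the Col-0 range. LecRK-I.8 had 0.722, 0.787, 0.825 and 0.941 TPM in pAP141 t1, against 1.33, 1.08, 0.821 and 1.53 TPM in Col-0 t1, a fitted log2 change of -0.37 (SE 0.209, adjusted p = 0.304 in edgeR). The fitted changes of all 3 were thus below 0 at t1, and 1 of the 3, LecRK-I.9, had an unadjusted p under 0.05. DESeq2 called neither of the 2 retained genes it gave an adjusted p.

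At t2 the 3 retained genes did not move together. LecRK-I.7 had 4.15 and 5.78 TPM in pAP141, against 4.87, 5.34 and 4.90 TPM in Col-0, with a fitted log2 change of 0.19 (SE 0.173, adjusted p = 0.583 in edgeR). LecRK-I.9 had 1.66 and 3.25 TPM in pAP141, against 4.35, 3.85 and 3.04 TPM in Col-0, with a fitted log2 change of -0.41 (SE 0.207, adjusted p = 0.323). LecRK-I.8 had 0.637 and 0.807 TPM in pAP141, against 0.995, 0.890 and 0.647 TPM in Col-0, with a fitted log2 change of 0.01 (SE 0.278, adjusted p = 0.992). All 3 overlap between the groups, none had an unadjusted p under 0.05, and DESeq2 called 0. LecRK-I.11 stayed at 0 or 1 read in each pAP141 sample.

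The total of the 4 retained genes was 11.1, 10.06, 13.2 and 14.0 TPM in pAP141 t1, against 15.3, 17.2, 16.0 and 19.1 TPM in Col-0 t1. Here no pAP141 sample reached the Col-0 range, and the means were 12.1 ± 1.84 TPM and 16.9 ± 1.62 TPM (SD, n = 4 each). On the summed reads the edgeR log2 fold change was -0.31 (SE 0.107). At t2 the total was 6.45 and 9.85 TPM in pAP141, against a mean of 9.63 ± 0.898 TPM in Col-0 (SD, n = 3), with a log2 fold change of summed reads of -0.05 (SE 0.139). With the chromosome 3 genes counted in, the 10 genes summed to 12.1 ± 1.84 TPM in pAP141 t1 and 21.7 ± 1.79 TPM in Col-0 t1. No p-value is given for totals, since the genes were picked with earlier results known.

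**Figure D3:**
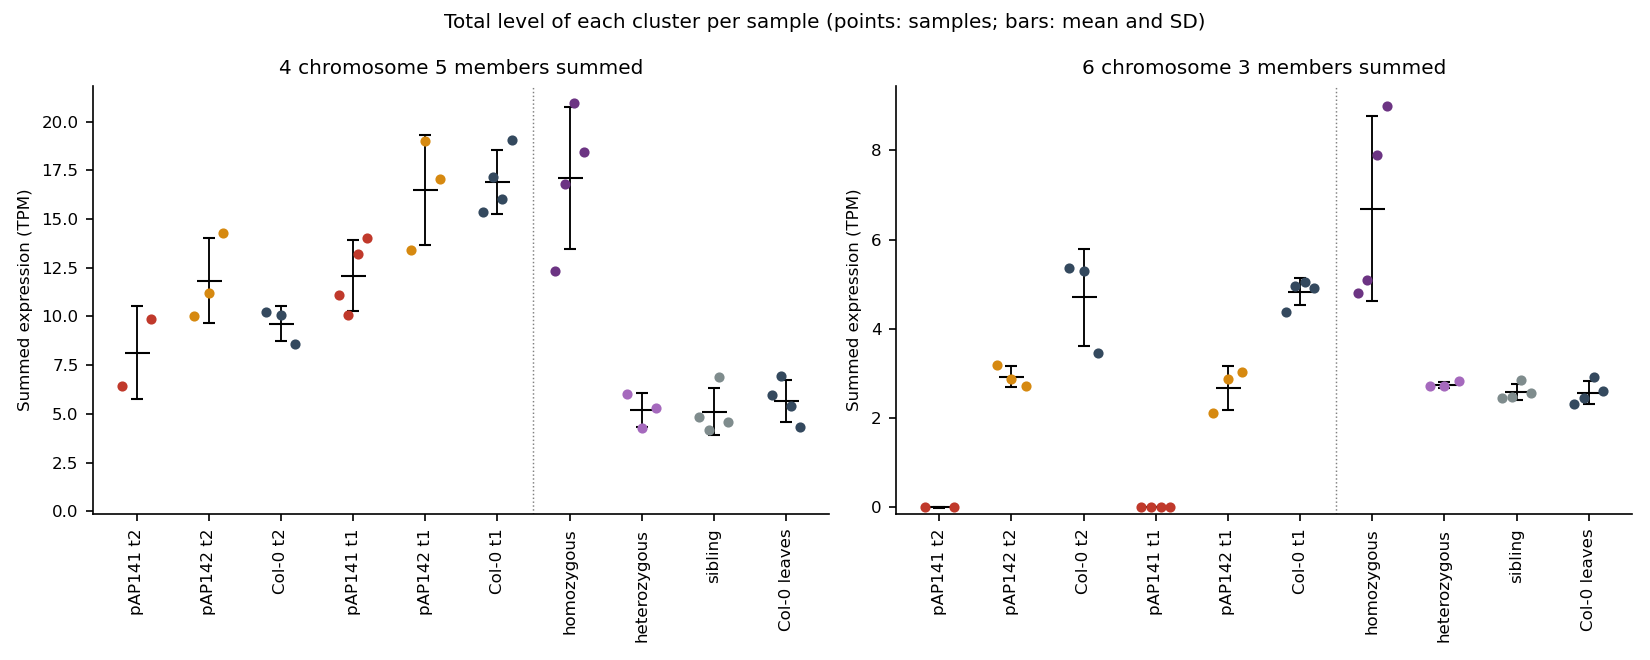
Summed TPM of the 4 chromosome 5 genes (left) and of the 6 chromosome 3 genes (right) in every sample, with bars for the mean and SD; a dotted line parts the time-of-day samples from the pAP146 samples. The chromosome 5 total of the 4 pAP141 t1 samples lies between 10.06 and 14.0 TPM, below the 15.3 to 19.1 TPM of Col-0 t1, and homozygous pAP146 seedlings lie above the leaf samples in both panels.

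In pAP142, which keeps both clusters, 2 chromosome 3 genes were lower than in Col-0 at both time points: LecRK-I.3 and the ATP receptor LecRK-I.5. LecRK-I.5 had 0.297, 0.141 and 0.266 TPM in pAP142 t1, against 1.10, 1.06, 0.780 and 0.782 TPM in Col-0 t1, and 0.310, 0.187 and 0.128 TPM in pAP142 t2, against 0.952, 0.849 and 0.612 TPM in Col-0 t2. The groups stand far apart at both times, at 25.2% and 25.9% of the Col-0 mean. The log2 fold changes were -1.93 (SE 0.317, adjusted p = 0.0012 in edgeR) at t1 and -1.91 (SE 0.338, adjusted p = 0.00453) at t2, and both calls held under every alternative setting and every sample left out. LecRK-I.3 had 0.939, 1.26 and 1.28 TPM in pAP142 t1, against 1.89, 2.34, 2.69 and 2.80 TPM in Col-0 t1, a fitted log2 change of -1.03 (SE 0.166, adjusted p = 0.00107 in edgeR). At t2 it had 1.55, 1.48 and 1.28 TPM in pAP142, against 2.52, 2.64 and 1.67 TPM in Col-0, a fitted log2 change of -0.63 (SE 0.173, adjusted p = 0.0423). Again no samples overlap, but the t2 call was lost on leaving out any of the 6 samples other than Col-0 t2 replicate 3, with adjusted p of up to 0.173 in edgeR.

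LecRK-I.2 was at a similar distance but rested on few reads. It had 0.0884, 0 and 0.0153 TPM in pAP142 t1, against 0.108, 0.0692, 0.223 and 0.165 TPM in Col-0 t1, and was not called at t1 (log2 fold change -1.90, adjusted p = 0.107 in edgeR) or at t2 (-1.93, adjusted p = 0.188). LecRK-I.1, LecRK-I.4 and LecRK-I.6 overlapped Col-0 at both times, with log2 fold changes between -0.72 and 0.52 and no call. LecRK-I.4, the near copy of LecRK-I.3, had 0.621, 1.17 and 1.10 TPM in pAP142 t1, against 0.958, 1.29, 1.02 and 0.901 TPM in Col-0 t1 (log2 fold change -0.08, adjusted p = 0.811 in edgeR). The 6 chromosome 3 genes together summed to 2.68 ± 0.497 TPM in pAP142 t1 and 4.83 ± 0.307 TPM in Col-0 t1 (SD, n = 3 and 4), and to 2.93 ± 0.239 TPM in pAP142 t2 and 4.71 ± 1.09 TPM in Col-0 t2 (SD, n = 3 each).

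Among the chromosome 5 genes of pAP142, LecRK-I.9 was called lower at t1 and LecRK-I.7 higher at t2. LecRK-I.9 had 3.09, 4.36 and 3.72 TPM in pAP142 t1, against 4.76, 5.76, 5.40 and 6.22 TPM in Col-0 t1, a fitted log2 change of -0.53 (SE 0.169, adjusted p = 0.0362 in edgeR). The samples do not overlap, yet the call held only without Col-0 t1 replicate 1 or without pAP142 t1 replicate 2 and was lost on leaving out each of the other 5 samples, with adjusted p of up to 0.114. At t2 LecRK-I.9 overlapped Col-0, at 3.72, 2.63 and 2.97 TPM in pAP142 against 4.35, 3.85 and 3.04 TPM in Col-0 (log2 fold change -0.24, adjusted p = 0.461). LecRK-I.7 had 5.58, 7.59 and 9.95 TPM in pAP142 t2, against 4.87, 5.34 and 4.90 TPM in Col-0 t2, a fitted log2 change of 0.64 (SE 0.155, adjusted p = 0.0164 in edgeR). All 3 pAP142 samples were higher, the first by little, and the call was lost without Col-0 t2 replicate 1, Col-0 t2 replicate 2, pAP142 t2 replicate 2 or pAP142 t2 replicate 3, with adjusted p of up to 0.102. At t1 LecRK-I.7 (0.22, adjusted p = 0.302) and LecRK-I.8 (0.05, adjusted p = 0.895) were not called, nor was LecRK-I.8 at t2 (0.31, adjusted p = 0.481). In all, 3 of the 9 genes tested were called lower and 0 higher in pAP142 t1, where 8.94% of all genes were called lower and 9.39% higher, and 2 were called lower and 1 higher in pAP142 t2, where 2.67% were called lower and 5.07% higher.

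**Figure D4:**
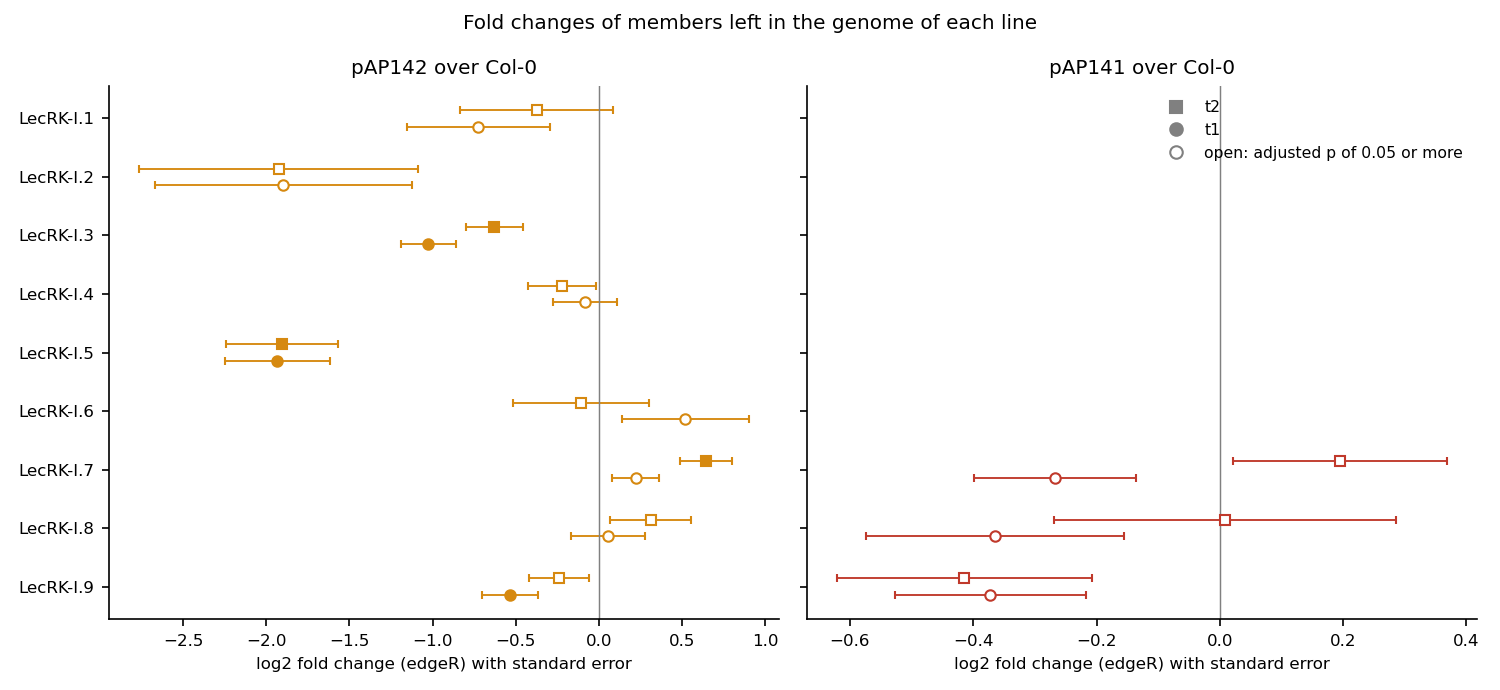
Log2 fold changes in edgeR with standard errors for each gene still in the genome, pAP142 over Col-0 (left) and pAP141 over Col-0 (right), at t2 (squares) and t1 (circles); filled symbols have an adjusted p under 0.05 and the horizontal scales differ. LecRK-I.5 stands at -1.93 and -1.91 in pAP142, and no symbol is filled for pAP141.

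Some root markers were lower in pAP142 than in Col-0, and others were not. Their summed level was 479.9 to 635.8 TPM in pAP142 t1 and 1014 to 1201 TPM in Col-0 t1, with 5 of 8 called lower. At t2 the sums overlapped, at 423.1 to 697.4 TPM in pAP142 and 578.0 to 755.8 TPM in Col-0, with 2 of 8 called lower. PYK10 gave most of these sums, with means of 513.5 TPM in pAP142 t1 and 1001 TPM in Col-0 t1, and 484.0 and 603.4 TPM at t2. PIN2 averaged 6.46 TPM in pAP142 t1 and 6.31 TPM in Col-0 t1, and 6.01 and 6.33 TPM at t2. In pAP141 t1, where LecRK-I.9 and LecRK-I.7 stood at log2 fold changes of -0.37 and -0.27, the root markers summed to 933.8 to 1123 TPM and 0 of 8 were called. In Col-0 leaves, in which root markers were near 0, LecRK-I.5 had a mean of 1.25 TPM and LecRK-I.3 of 0.318 TPM. The part of the root markers in the pAP142 values was not tested, and in bulk samples fewer cells of a type and less RNA per cell cannot be told apart. The study describes its pAP142 lines as further from Col-0 in sequence than its other lines. Whether LecRK-I.3, LecRK-I.5 and LecRK-I.9 carry differences in pAP142, on which the assignment of reads to them depends, was not examined here.

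By time of day, LecRK-I.7 alone passed the test, and in Col-0 alone. It had 4.87, 5.34 and 4.90 TPM in Col-0 t2, against 9.26, 10.3, 9.82 and 11.3 TPM in Col-0 t1, a fitted log2 change of -0.82 (SE 0.146, adjusted p = 0.000286 in edgeR), with every morning sample far below every evening sample. This was 1 of the 9 genes tested, beside 16.6% of all genes called lower and 14% called higher in the morning, and the call held under every alternative and every sample left out. LecRK-I.9 had 4.35, 3.85 and 3.04 TPM in Col-0 t2, against 4.76, 5.76, 5.40 and 6.22 TPM in Col-0 t1, with no overlap in TPM but an adjusted p of 0.102 (log2 fold change -0.38, SE 0.169). Its unadjusted p was 0.0384 in edgeR. In this comparison, too, TPM ratios ran lower than edgeR fold changes, by 0.187 (log2) at the median gene. Whether this bears on the lack of a call was not tested. The 6 chromosome 3 genes overlapped between the times in Col-0, with log2 fold changes from -0.04 to 0.58.

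In the deletion lines the morning levels of LecRK-I.7 were also the lower ones on average. They were 4.15 and 5.78 TPM in pAP141 t2, against 7.06, 6.85, 7.64 and 8.31 TPM in pAP141 t1 (log2 fold change -0.36, SE 0.166, adjusted p = 0.107 in edgeR), and 5.58, 7.59 and 9.95 TPM in pAP142 t2, against 9.47, 13.3 and 11.9 TPM in pAP142 t1 (-0.40, SE 0.152, adjusted p = 0.0621). The samples stand apart in pAP141 and overlap in pAP142. Of the 3 retained genes tested in pAP141, 0 were called, beside 17.9% of all genes called higher and 16.7% lower in pAP141 t2. The 6 deleted genes could not be called there, since they are absent at both times. In pAP142, 0 of the 9 genes tested were called, beside 13.1% of all genes called higher and 13.9% lower in pAP142 t2. At an unadjusted p under 0.05 there were 2 of the 3 retained genes in pAP141 (LecRK-I.7 and LecRK-I.9) and 2 of 9 in pAP142 (LecRK-I.3 and LecRK-I.7). DESeq2 called 0 in pAP141 and 1, LecRK-I.3, in pAP142. The difference between the lines and Col-0 in the morning-to-evening change of LecRK-I.7 was 0.46 (SE 0.217) for pAP141, with an adjusted p of 0.747, and 0.42 (SE 0.209) for pAP142, with an adjusted p of 0.506. No difference of this kind was called for the 3 retained genes in pAP141 or for the 9 genes in pAP142. There was 1 unadjusted p under 0.05 (LecRK-I.7) in pAP141 and 0 in pAP142. DESeq2 called 0 for pAP142 and gave no adjusted p for pAP141. Over all genes tested 0% were called higher and 0% lower for pAP141, and 0.117% higher and 0.0937% lower for pAP142. A different response of LecRK-I.7 to the time of day is therefore not shown. Marker sums also changed with time in Col-0. Root markers summed to 578.0 to 755.8 TPM at t2 and 1014 to 1201 TPM at t1, with 1 of 8 called lower. PYK10 gave most of that sum, with means of 603.4 TPM at t2 and 1001 TPM at t1. The median log2 fold change of the 8 root markers was 0.002. Leaf markers summed to 40050 to 43570 TPM at t2 and 28970 to 33140 TPM at t1, with 3 of 4 called higher. LHCB2.1, 1 of the 4, averaged 1832 TPM at t2 and 15.34 TPM at t1. The part of the markers in the value of LecRK-I.7 was not tested.

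In homozygous pAP146 seedlings, which keep both clusters, LecRK-I.8, LecRK-I.3, LecRK-I.1 and LecRK-I.2 were far above the leaves of siblings, and the ATP receptors did not follow them. LecRK-I.8 had 5.19, 8.39, 9.54 and 2.92 TPM in homozygous seedlings, against 0.159, 0.126, 0.228 and 0.149 TPM in siblings, a fitted log2 change of 4.56 (SE 0.445, adjusted p = 1.32e-06 in edgeR). LecRK-I.3 had 0.925, 1.84, 3.36 and 4.34 TPM in homozygous seedlings, against 0.265, 0.241, 0.216 and 0.221 TPM in siblings, a fitted log2 change of 2.70 (SE 0.413, adjusted p = 6.96e-05). The groups are well apart for both genes, while homozygous samples spread about their own mean far more than siblings do. LecRK-I.1 had 0.564, 0.761, 1.09 and 0.879 TPM in homozygous seedlings, from 361 reads, against 1 read over the 4 siblings, a ratio of 245 with a counting interval of 43.7 to 9704. LecRK-I.2, its near copy, had 0.0900, 0.451, 0.605 and 0.527 TPM in homozygous seedlings, from 178 reads, and 0 reads in siblings, so that it was at least 9.96-fold higher on a floor of 3 reads per library, on the same TMM scale as the ratio of LecRK-I.1. Both were called (adjusted p = 1.29e-06 for LecRK-I.1 and 0.000171 for LecRK-I.2 in edgeR), and that 1 read was all that siblings gave for the pair.

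**Figure D5:**
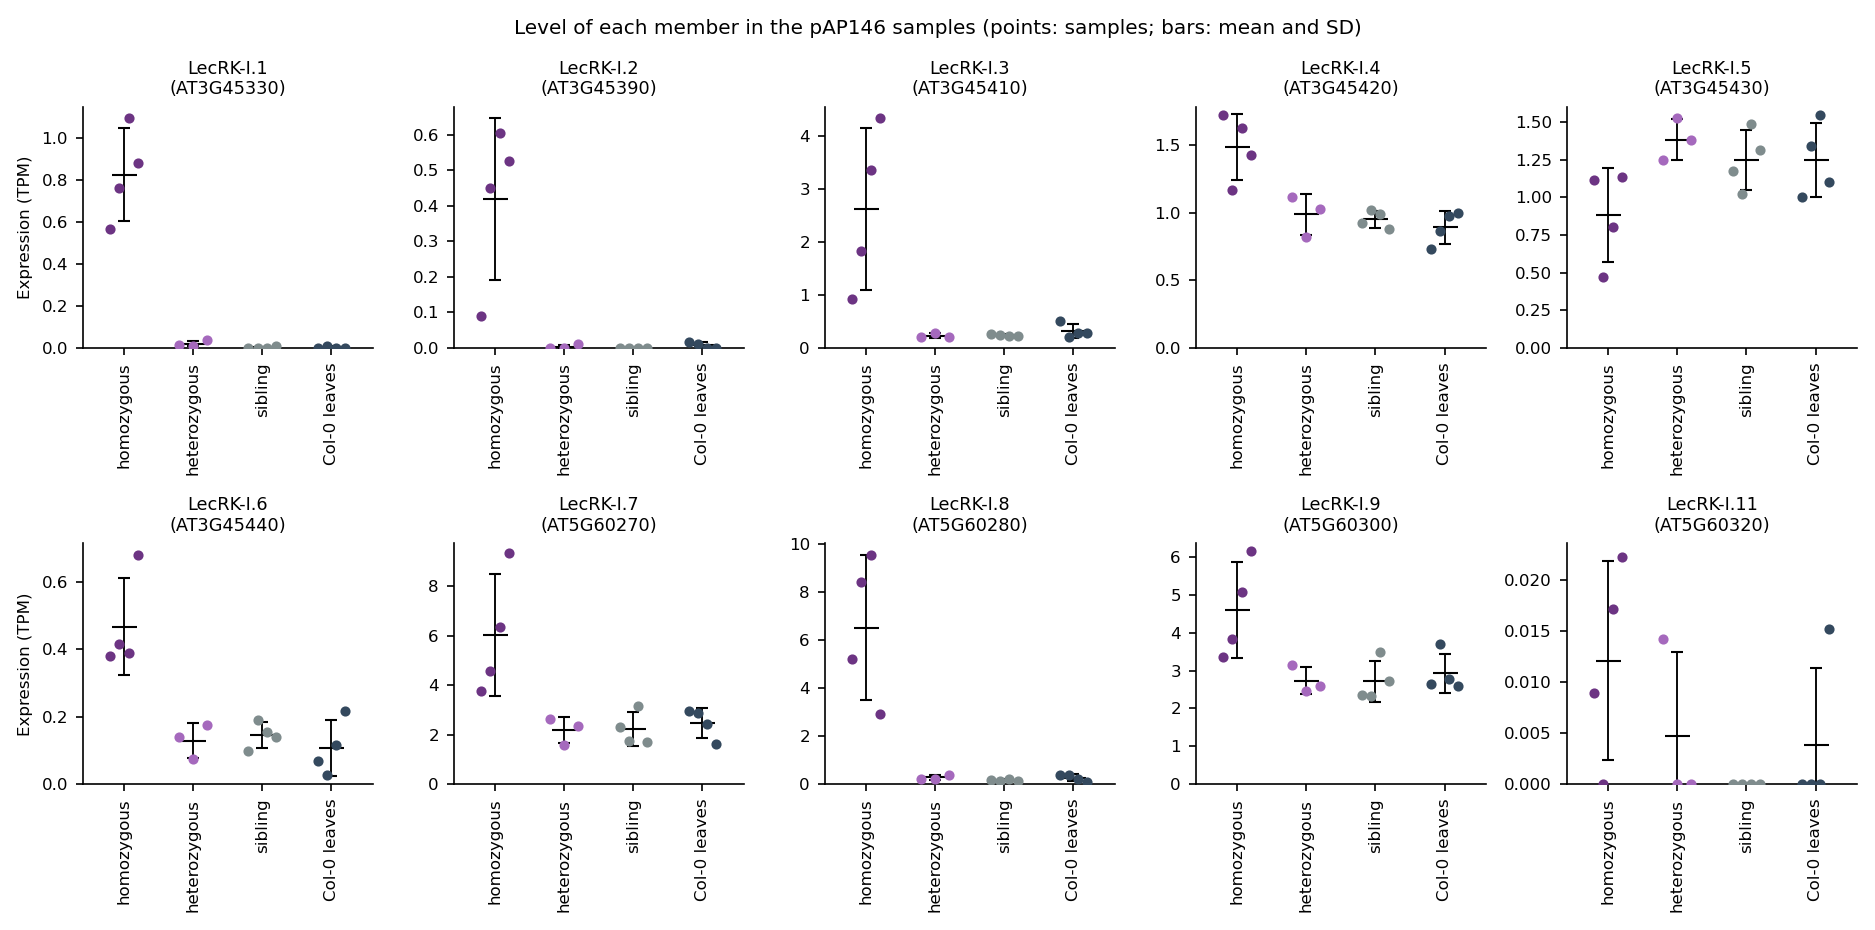
Expression in TPM of each of the 10 genes in the pAP146 samples, with a point for each sample and bars for the mean and SD; the vertical axis differs between panels and starts at 0. LecRK-I.8 lies between 2.92 and 9.54 TPM in homozygous seedlings and between 0.126 and 0.228 TPM in siblings, while LecRK-I.5 overlaps between homozygous seedlings and siblings.

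LecRK-I.5 had 1.12, 0.473, 0.806 and 1.13 TPM in homozygous seedlings, against 1.17, 1.02, 1.49 and 1.31 TPM in siblings, and was called lower at a log2 ratio of -1.24 (SE 0.255, adjusted p = 0.000821 in edgeR). LecRK-I.9 had 3.35, 3.82, 5.08 and 6.16 TPM in homozygous seedlings, against 2.35, 2.33, 3.49 and 2.72 TPM in siblings, with a fitted log2 change of 0.02 (SE 0.176, adjusted p = 0.939). Levels in TPM and fold changes part here, since TPM ratios in this comparison exceeded edgeR fold changes by 0.744 (log2) at the median gene. The mean TPM of LecRK-I.9 is thus the higher in homozygous seedlings, with overlapping samples, while its fold change is near 0, and the TPM of LecRK-I.5 overlaps between the groups while its fold change is below 0. The same holds for LecRK-I.4, at 1.72, 1.17, 1.63 and 1.43 TPM in homozygous seedlings, all above the 0.881 to 1.02 TPM of siblings, with a fitted log2 change of -0.09 (SE 0.163, adjusted p = 0.646 in edgeR). LecRK-I.7 had 3.78, 4.58, 6.35 and 9.34 TPM in homozygous seedlings, against 2.33, 1.74, 3.16 and 1.69 TPM in siblings, and was called higher by little (0.69, SE 0.276, adjusted p = 0.0424). Its call was lost without homozygous replicate 3 or 4 and without sibling replicate 1, 2 or 4, with adjusted p of up to 0.164 in edgeR. LecRK-I.6 had 0.381, 0.415, 0.390 and 0.682 TPM in homozygous seedlings, against 0.0984, 0.190, 0.154 and 0.141 TPM in siblings, and was not called (0.94, SE 0.461, adjusted p = 0.0931).

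Against siblings, 5 of the 9 genes tested were called higher and 1 lower, beside 33% and 27.8% of all genes tested. Against Col-0 leaves, 5 were called higher and 1 lower, beside 33.8% and 28.2% of all genes. Homozygous seedlings are the same samples in both comparisons. Relative to Col-0 leaves, LecRK-I.6 was called (log2 fold change 1.37, SE 0.470, adjusted p = 0.0202 in edgeR), a call lost without Col-0 leaves replicate 1 (adjusted p = 0.0592), and LecRK-I.7 was not (0.52, SE 0.275, adjusted p = 0.111). The other called genes were LecRK-I.8 (3.86, adjusted p = 3.88e-06), LecRK-I.3 (2.28, adjusted p = 0.000238), LecRK-I.1 (361 reads against 1, ratio 245, 43.6 to 9692), LecRK-I.2 (178 reads against 3, ratio 40.2, 13.5 to 197) and, lower, LecRK-I.5 (-1.24, adjusted p = 0.000755). LecRK-I.8 made up 38.4% of the chromosome 5 total in homozygous seedlings (15.8 to 50.0% by sample), against 3.2% in siblings (3.0 to 3.3%). That total was 17.1 ± 3.64 TPM in homozygous seedlings and 5.12 ± 1.20 TPM in siblings, and the chromosome 3 total 6.70 ± 2.07 TPM in homozygous seedlings and 2.59 ± 0.182 TPM in siblings (SD, n = 4 each). The size of both differences rests on the scale: the log2 ratio of mean TPM was 1.74 for chromosome 5 and 1.37 for chromosome 3, whereas summed reads in edgeR gave 0.94 (SE 0.172) and 0.62 (SE 0.159).

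Root and leaf markers separated the same samples. All 8 root markers were called higher in homozygous seedlings than in siblings, with sums of 128.2 to 550.1 TPM and 1.18 to 8.19 TPM, and all 4 leaf markers lower, with sums of 30420 to 48480 TPM and 65830 to 74050 TPM. Their part in the changes of LecRK-I.8, LecRK-I.3, LecRK-I.1 and LecRK-I.2 was not tested. Whole seedlings of Col-0 are available only from the time-of-day experiment, which was fitted apart, so levels are set side by side with no test. LecRK-I.1 averaged 0.824 TPM in homozygous seedlings, 0.153 TPM in Col-0 t1 seedlings and 0.00232 TPM in Col-0 leaves, and LecRK-I.3 averaged 2.62, 2.43 and 0.318 TPM in those groups. LecRK-I.8 averaged 6.51 TPM in homozygous seedlings, 1.19 TPM in Col-0 t1 seedlings and 0.269 TPM in Col-0 leaves, and LecRK-I.7 averaged 6.01, 10.2 and 2.47 TPM. Leaves were thus the lowest of the 3 for these 4 genes. Homozygous seedlings had the highest mean for LecRK-I.8 and LecRK-I.1, with samples apart from Col-0 t1, and for LecRK-I.3, with overlapping samples. Beside Col-0 t1 they did not for LecRK-I.7. These orders are in TPM, whose ratios of homozygous seedlings to Col-0 leaves exceeded edgeR fold changes by 0.744 (log2) at the median gene. In Col-0 t2 seedlings LecRK-I.7 averaged 5.04 TPM, below the mean of homozygous seedlings, with overlapping samples. No time of day is given for the pAP146 samples, so the place of LecRK-I.7 depends on the Col-0 time point chosen. LecRK-I.5 had its highest mean of the 3 in Col-0 leaves, with overlapping samples. It averaged 0.883 TPM in homozygous seedlings, 0.930 TPM in Col-0 t1 seedlings and 1.25 TPM in Col-0 leaves. In leaves LecRK-I.5 was the third most abundant of the 10 transcripts, behind LecRK-I.9 (2.93 TPM) and LecRK-I.7 (2.47 TPM), whose samples overlap.

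Heterozygous pAP146 leaves did not differ from siblings in any of the genes by the test. LecRK-I.8 had 0.235, 0.224 and 0.396 TPM in heterozygous leaves, against 0.159, 0.126, 0.228 and 0.149 TPM in siblings (log2 fold change 0.69, SE 0.469), and LecRK-I.9 had 3.14, 2.47 and 2.60 TPM, against 2.35, 2.33, 3.49 and 2.72 TPM (-0.08, SE 0.191). LecRK-I.1 had 2, 1 and 4 reads in heterozygous leaves, against 0, 0, 0 and 1 in siblings, the only gene with an unadjusted p under 0.05. All adjusted p in edgeR were 1, and over all genes tested 0% were called higher and 0.0528% lower. Between siblings and Col-0 leaves, too, none of the genes was called or had an unadjusted p under 0.05, beside 0.0096% of all genes called higher and 0.0048% lower. DESeq2, too, called 0 of the genes in both comparisons. The total of the chromosome 5 genes was 5.21 ± 0.867 TPM in heterozygous leaves (SD, n = 3), 5.12 ± 1.20 TPM in sibling leaves and 5.67 ± 1.08 TPM in Col-0 leaves (SD, n = 4 each).

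LecRK-I.10, the neighbour of LecRK-I.9 and its closest relative here by coding identity (83.2%), was expressed at a low level. It had 0.0704, 0.138, 0.238 and 0.266 TPM in pAP141 t1, against 0.220, 0.474, 0.212 and 0.642 TPM in Col-0 t1 (log2 fold change -0.96, SE 0.383, adjusted p = 0.163 in edgeR). With it, the chromosome 5 total was 12.3 ± 1.92 TPM in pAP141 t1 and 17.3 ± 1.82 TPM in Col-0 t1. In homozygous pAP146 seedlings LecRK-I.10 was called higher than in siblings (1.55, SE 0.582, adjusted p = 0.0323) and than in Col-0 leaves (1.61, SE 0.585, adjusted p = 0.0272), the first call being lost without homozygous replicate 3 or sibling replicate 1 or 2 (adjusted p of up to 0.0913) and the other without homozygous replicate 3 or Col-0 leaves replicate 1 or 2 (up to 0.0775).

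The rest of the L-type lectin receptor kinase family, a list of 33 genes, was set beside the clusters. In pAP141, 0 of the 28 tested were called at t1 or at t2. Over all genes 0% were called higher and 0.0749% lower at t1, and 0.0421% and 0.0562% at t2. Median log2 fold changes of the list were -0.28 and -0.12 (-0.01 and 0.01 over all genes). At t1 9 and at t2 4 had an unadjusted p under 0.05, for which no share over all genes is given. In pAP142 t1, where 9.39% of all genes were called higher and 8.94% lower, LecRK-V.4 was called higher (0.66, adjusted p = 0.00123 in edgeR) and LecRK-S.1 lower (-0.45, adjusted p = 0.0306), and in pAP142 t2 there were 4 higher calls of 28, beside 5.07% of all genes: LecRK-IV.1 (0.58, adjusted p = 0.00885), LecRK-VI.2 (1.13, adjusted p = 0.0183), LecRK-V.5 (0.89, adjusted p = 0.0433) and LecRK-V.2 (26 reads in pAP142 against 1 in Col-0, adjusted p = 0.0466). In the list, medians were -0.10 at t1 and 0.18 at t2, against -0.03 and -0.01 over all genes, whereas LecRK-I.3 and LecRK-I.5 were lower at both times. In homozygous pAP146 seedlings 13 of 27 were called higher and 3 lower than in siblings, beside 33% and 27.8% of all genes, with a list median of 0.90 (0.07 over all genes), led by LecRK-VI.3 (4.07), LecRK-VI.4 (3.94), LecRK-VII.1 (1.33) and, lower, LecRK-VIII.2 (-1.40). Against Col-0 leaves 14 were called higher and 3 lower, beside 33.8% and 28.2%. From evening to morning, 9 of 28 were called higher and 2 lower in Col-0 t2 (14% and 16.6% of all genes), 11 and 3 in pAP141 t2 (17.9% and 16.7%) and 7 and 1 in pAP142 t2 (13.1% and 13.9%), LecRK-VII.2 being called higher in each (0.76, 0.93 and 0.83).

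Of 25 genes that act in extracellular ATP metabolism or downstream of the receptors, all were tested. In pAP141, which lacks LecRK-I.5, 0 were called at either time. Over all genes 0% were called higher and 0.0749% lower at t1, and 0.0421% and 0.0562% at t2, so 0 of 25 is near those shares. Medians were -0.02 at both times (-0.01 and 0.01 over all genes), and 4 genes at t1 and 0 at t2 had an unadjusted p under 0.05. In pAP142 t1, 2 were called higher and 7 lower (median -0.14), beside 9.39% and 8.94% of all genes, with NSH3, an extracellular nucleosidase, at -0.85 (adjusted p = 0.0112 in edgeR), CNGC2, a calcium channel subunit, at -0.41 (adjusted p = 0.0222), MVK, mevalonate kinase, at -0.30 (adjusted p = 0.0151) and WRKY40, a transcription factor gene induced by ATP, at -1.27 (adjusted p = 0.0242). In pAP142 t2, 3 were called higher and 1 lower (median 0.07), beside 5.07% and 2.67% of all genes, and WRKY40 stood on the other side of 0, at 1.31 (adjusted p = 0.0496), beside BIK1, a receptor-associated kinase, at 1.12 (adjusted p = 0.000344), ZAT10 at 1.31 (adjusted p = 0.0216) and NSH3 at -0.84 (adjusted p = 0.0315). NSH3 was thus lower in pAP142 at both times, as were LecRK-I.5 and LecRK-I.3. By time of day 2 of the 25 were called higher and 7 lower in Col-0 t2, 5 and 4 in pAP141 t2 and 5 and 2 in pAP142 t2, beside the shares of all genes given above for these times, with ANN1, an annexin of the ATP-triggered calcium response, lower in each (-0.88, -1.16 and -0.81). In homozygous pAP146 seedlings 9 were called higher and 5 lower than in siblings (median 0.31, against 0.07 over all genes), beside 33% and 27.8% of all genes, and 12 and 4 against Col-0 leaves, beside 33.8% and 28.2%. Among them were CNGC2 (-2.49) and MYC2, the jasmonate transcription factor (-2.48), below siblings and MVK (1.06) and MPK6, a mitogen-activated protein kinase (0.58), above them.

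Across the 19 time-of-day samples, the transcripts that tracked LecRK-I.9 most closely were those of AT1G74250 (Pearson's r = 0.969), BET10 (AT3G01770, r = 0.967) and XIH, a class XI myosin (AT4G28710, r = 0.960), on the scale of log2(TPM + 1) and among 18266 genes that averaged 1 TPM or more. The median r over those genes was 0.525, and 298 of them (1.63%) exceeded 0.9. The other genes of the clusters that passed the minimum were LecRK-I.7 (r = 0.533) and LecRK-I.3 (r = 0.492), close to that median. LecRK-I.3 is at 0 TPM in every pAP141 sample because it is deleted, so its r cannot be read as co-expression. The deletion also lowers the averages of the other chromosome 3 genes, to which the minimum was applied. The points share libraries, depth and genotype groups, and the values are a description.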

How the data were processed

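RNA was measured by stranded mRNA sequencing in 34 samples of Arabidopsis thaliana. Per the labels and the study's methods, the authors quantified reads against the Araport11 primary transcriptome with Salmon 1.6.0 and deposited TPM and estimated counts per gene. HISAT2 2.2.1 and DESeq2 1.44.0 are also named in the submitters' processing notes.

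Estimated counts were rounded and tested with edgeR 4.0.16 under R 4.3.3 (TMM, filterByExpr, robust quasi-likelihood), with 1 fit for the 19 time-of-day samples (21356 genes tested) and 1 for the 15 pAP146 samples (20833 genes tested), and group as the only term. The scripts were tested on simulated data. A floor of 3 reads per library stood in for groups at 0 reads, and intervals (95%, exact) cover counting error only. Coding sequences and gRNA sites were read from TAIR10.1, in which all 10 coding lengths equal the deposited lengths, and aligned with Biopython 1.88. Named genes were the 10 genes, LecRK-I.10, up to 4 called genes per list and comparison by smallest adjusted p, and the 3 genes most correlated with LecRK-I.9. Members and lists were chosen with earlier results of these data known. Alternatives were RLE factors, no filter, a replicate block, effective length offsets, DESeq2 1.42.0, the compared groups alone, summed reads, TMM CPM, LecRK-I.10 added to the total, and each sample left out. Another pseudocount (0.1) and minimum (5 TPM) were tried for the correlations.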

Additional observations from a re-analysis of the deposited data

Results flagged for a closer look

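In 5 of the 42 sets of 4 samples of a gene and group, the highest sample stood apart from the other 3 by Dixon's criterion. Chance meets it in about 1 in 20 sets of continuous values, a rate that does not hold where the other 3 samples are at 0. LecRK-I.6 was at 0.682 TPM (66 reads) in homozygous replicate 4, against 0.381 to 0.415 TPM in the other homozygous seedlings. LecRK-I.9, the ATP receptor, was at 3.69 TPM in Col-0 leaves replicate 2, against 2.60 to 2.78 TPM in the other Col-0 leaves. The remaining 3 rest on 1 or 2 reads where the other samples had 0, so that any read meets the criterion: LecRK-I.1 at 0.00716 TPM in pAP146 sibling replicate 4, LecRK-I.1 at 0.00927 TPM in Col-0 leaves replicate 2 and LecRK-I.11 at 0.0151 TPM in Col-0 leaves replicate 4.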

How the results depend on the processing

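Of 30 calls on the genes of both clusters and LecRK-I.10, 22 held under every alternative run, 8 were lost under at least 1, and 0 changed direction. In pAP142 t2 over Col-0 t2, higher calls went to 0 with the compared groups alone, and lower calls to 1 with no filter, with the replicate block and with the compared groups alone. With the compared groups alone, lower calls were 2 in Col-0 t2 over t1 and 1 in pAP141 t2 over t1. In pAP142 t2 over t1 there was 1 higher call in DESeq2 and 1 lower call with the replicate block. Samples with equal replicate numbers did not deviate together on average (mean r 0.0212 over 41 time-of-day pairs and -0.0319 over 21 pAP146 pairs). Single pairs ran from -0.305 to 0.328 and from -0.319 to 0.227, so these means cannot exclude a pairing within some groups. Under the replicate block the calls of LecRK-I.6 in pAP141 t2, LecRK-I.9 in pAP142 t1 (adjusted p = 0.0873 in edgeR), LecRK-I.3 in pAP142 t2 and LecRK-I.7 in homozygous over sibling were lost.

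The log2 ratio of the chromosome 5 total was -0.61 in Col-0 t2 over t1 on TMM CPM and on summed reads in edgeR, 0.94 on both for homozygous over sibling, and 0.779 and 0.781 for homozygous over Col-0 leaves. For the chromosome 3 total these were 0.623 and 0.624 against siblings and 0.628 and 0.627 against Col-0 leaves. On TPM the corresponding ratios were -0.811 in Col-0 t2 over t1, 1.743 and 1.596 for chromosome 5 and 1.372 and 1.380 for chromosome 3. The gap between the scales was not particular to these genes. At the median gene the log2 TPM ratio minus the edgeR fold change was 0.744 against siblings and against Col-0 leaves, and -0.187 in Col-0 t2 over t1. What lies behind this shift of scale was not tested.

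Leaving out each sample gave 5 to 6 lower calls in pAP141 t1, 3 to 5 in pAP141 t2 and 2 to 3 in pAP142 t1. In pAP142 t2 it gave 0 to 1 higher and 1 to 2 lower calls. By time of day it gave 1 lower call in Col-0, 0 to 1 in pAP141 and 0 to 1 in pAP142, with 0 higher. In homozygous seedlings it gave 4 to 5 higher calls and 1 lower against siblings, and 4 to 6 and 1 against Col-0 leaves. DESeq2 gave no adjusted p to 5 of 5 called genes in pAP141 t1 and to 1 of 4 in pAP141 t2. Genes with few reads in the time-of-day samples (LecRK-I.1, LecRK-I.2, LecRK-I.6) could show only large changes.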
